A study of Arabidopsis thaliana with 9 samples.

Results

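The transcripts of the apical hook of wild-type Arabidopsis seedlings were described gene by gene, from the 3 libraries of the genotype Col-0, called WT here. All 16383 genes of the deposited table were members, and the 3 WT libraries were taken from the 9 libraries of the series. The members were chosen by the sample labels alone, no measured value entered the choice, and no comparison between genotypes was made. The seedlings had been kept in the dark at 22 °C and were 45 h old. Each library came from a pool of about 50 hooks, cut as pieces of about 2 mm with the cotyledons taken off, and the labels speak of biological triplicates. Values are CPM (reads of a gene scaled to the same total in every library), errors are SDs over the 3 libraries (SD, n = 3), and with 1 group there is no test and no p-value. A gene's spread is also given as its coefficient of variation (CV), the SD as a percentage of the mean.

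After germination below ground, a shoot bends its upper hypocotyl into a hook that shields the cotyledons and the shoot tip. The hook forms because cells on its inner side elongate less than cells on its outer side. An auxin maximum at the inner side, set up by auxin carriers and read by receptors and Aux/IAA repressors, is known to restrain elongation there. Ethylene and gibberellin sharpen the hook, and light, sensed by phytochromes and cryptochromes, opens it. HOOKLESS1 (HLS1), a putative acetyltransferase, is required for the bend in this species.

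Depth was alike in the WT libraries, while replicate 3 stood apart from the other two. Library totals were 10997244, 12314517 and 11718107 reads, of which 88.6 to 89.3% fell on genes of the table. A gene of median level had 223, 246 and 223 reads, and a floor of 3 reads corresponds to 0.244 to 0.273 CPM. Across all genes, log2(CPM + 1) correlated at r = 0.983 between replicates 1 and 2, 0.967 between 1 and 3, and 0.975 between 2 and 3, which describes the libraries only, since genes are not independent replicates. Of 11247 genes with a mean of at least 10 CPM, 626 (5.57%) had a highest library at least 2-fold above the lowest. Without replicate 3 the number of such genes was 127, without replicate 2 it was 438 and without replicate 1 it was 307, with the mean taken over the remaining libraries. Of the 626 genes, 201 were highest and 355 lowest in replicate 3. Counts of list members highest or lowest in a library are given below as descriptions. The same share over all genes was not taken, so such a count does not by itself set a list apart.

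A small number of genes held much of the signal. The median gene stood at 19.96 CPM. A mean of at least 1 CPM was reached by 16297 genes, of at least 10 CPM by 11247 genes (68.7%), of at least 100 CPM by 1905 genes and of at least 1000 CPM by 66 genes. The 10 highest genes held 4.34 ± 0.485% of the table's summed CPM, with 4.26, 3.89 and 4.85% in replicates 1 to 3. The 100 highest held 17.7 ± 1.19% and the 1000 highest 47.4 ± 1.27%. All 3 shares were largest in replicate 3. At the low end, 86 genes averaged below 1 CPM in WT, 5 were at 0 reads in at least 1 WT library and 0 were at 0 reads in all 3. A gene entered the table through any of the 9 libraries, and 15857 of the genes were above 1 CPM in every WT library.

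**Figure D1:**
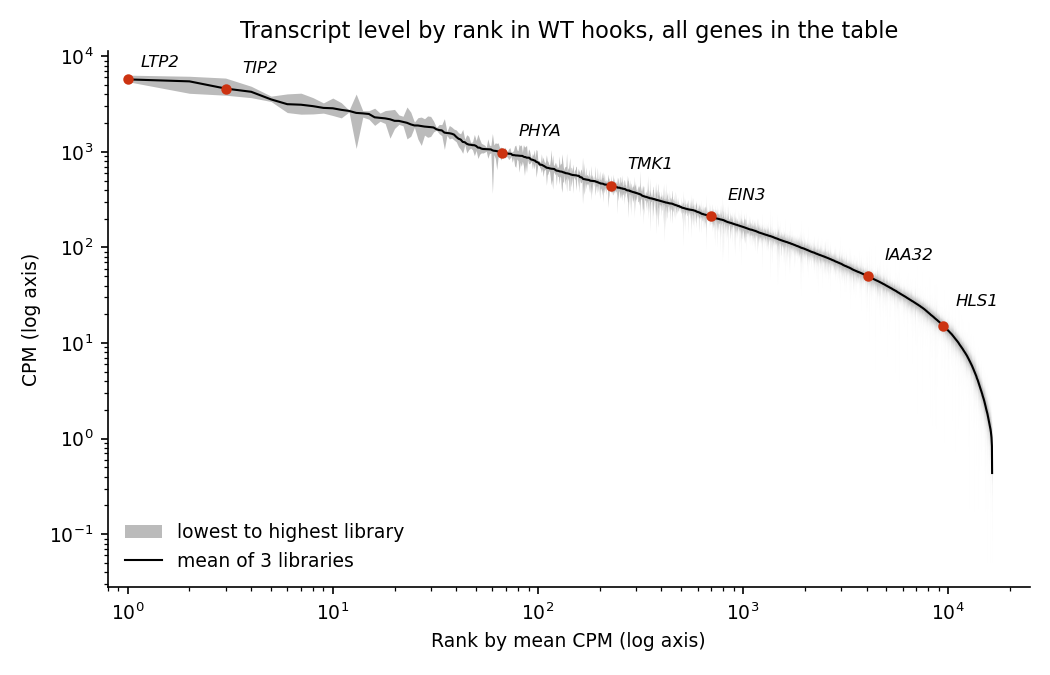
CPM against rank by mean CPM for all 16383 genes, both axes logarithmic; the black line is the mean of the 3 WT libraries and the grey band runs from the lowest to the highest library. LTP2 opens the curve at a mean of 5734 CPM, and of the labelled genes PHYA lies at rank 67, TMK1 at 228, EIN3 at 697, IAA32 at 4062 and HLS1 at 9485.

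The highest transcripts were those of surface lipids, growth peptides and water channels. LTP2, a lipid transfer protein of the epidermal cuticle, ranked first with 5426 CPM in replicate 1, 5426 in replicate 2 and 6350 in replicate 3 (mean 5734 ± 534). GASA4, a small cysteine-rich peptide of the gibberellin-regulated GASA family, ranked second with 6181, 4102 and 6119 CPM (5467 ± 1183). The 2 genes overlapped, since GASA4 was above LTP2 in replicate 1 and below it in the others. TIP2 (AT3G26520), a water channel of the vacuolar membrane, came next with 3959, 3917 and 5918 CPM and was clearly highest in replicate 3.

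The next ranks held defence, chaperone and further water channel genes. PYK10, the main beta-glucosidase of ER bodies, had 3693, 4209 and 4857 CPM. HSC70-1, a cytosolic Hsp70 chaperone, had 3830, 3429 and 3365 CPM, and PIP3, a plasma membrane aquaporin, had 2578, 2846 and 4042 CPM. These genes pulled in different directions, with PYK10 and PIP3 highest in replicate 3 and HSC70-1 highest in replicate 1. GRP7, a glycine-rich RNA-binding protein under clock control, was at 4113, 2479 and 2751 CPM, and the aquaporin PIP1B at 2494, 2840 and 3695 CPM. ATMS1, a methionine synthase, was the steadiest of the 25 highest, at 2613, 2729 and 2708 CPM (CV 2.32%). CAB1, a chlorophyll a/b-binding protein of the light-harvesting antenna, was the least steady of them, at 4027, 2561 and 1086 CPM (CV 57.5%). Reads of CAB1 and its near-identical neighbours may have been divided between them in a way the sources do not state.

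The order among these genes is loose. Of the 25 highest genes by mean CPM, 17 were among the 25 highest of every single library. All 24 pairs of neighbours in that order had overlapping ranges over the libraries. Longer transcripts give more reads, so levels of different genes are compared below only as CPM per kb of the longest transcript that the TAIR10.1 annotation gives. On that scale GASA4 led with 6869 (library range 5153 to 7765), ahead of LTP2 with 5152 (4875 to 5705) and TIP2 with 3564. The glycine-rich protein GRP3S followed with 3157 CPM per kb, AT1G62480 with 2812 and GRP7 with 2674. AGP21, an arabinogalactan protein with a very short transcript, was at 2498 CPM per kb although it ranked only 57th by CPM. Of the 24 pairs of neighbours per kb, 23 overlapped.

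The promoter of GASA4 is shown because this gene led all others per kb. Each promoter given here is the 250 bases before the gene's first annotated base, on the gene's strand, from the RefSeq assembly TAIR10.1, looked up by locus. That of GASA4 lies at chr5:4944566-4944815 on the plus strand. Capitals mark matches to 4 short motifs. These were the TATA box TATAAA, on the gene's strand and 60 to 16 bases before the start, and, on either strand anywhere in the window, the telo box AAACCCTA, the site II element TGGGCC or TGGGCT, and the G-box CACGTG.
GASA4: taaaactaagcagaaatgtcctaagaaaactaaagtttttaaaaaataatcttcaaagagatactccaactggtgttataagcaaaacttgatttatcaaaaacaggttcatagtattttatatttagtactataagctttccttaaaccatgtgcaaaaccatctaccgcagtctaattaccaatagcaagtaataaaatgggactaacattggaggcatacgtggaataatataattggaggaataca
The GASA4 window held none of the 4 motifs and therefore has no capitals. Among 15928 measured protein-coding genes, 9.13% had the TATA box, 3.52% the telo box, 23.6% a site II element and 7.48% the G-box. Among the 100 highest genes the shares were 10%, 5%, 20% and 6%. No motif contains another, and a match is a description of the sequence only.

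Aquaporin genes stood high as a group. Of 35 aquaporin genes 25 were measured, and their sum was 17155, 19148 and 27782 CPM, or 2.40% of the table's CPM. Their median was 97.6 CPM per kb, beside 11.3 for all genes with a length, and 19 of the 25 were above that of all genes. The median was 54.0 CPM per kb without replicate 3 and 129.5 without replicate 1. The sum was highest in replicate 3 for this group, and 21 of its 25 members were highest there. SIP1;2, a channel of the endoplasmic reticulum, was the lowest member at 1.89 CPM per kb.

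Wall synthesis genes were present as a nearly complete set. All 10 listed genes of primary wall cellulose synthesis with a name in the annotation were measured, with a median of 157 CPM per kb and sums of 5517, 6069 and 6159 CPM. CESA1 had 874, 1030 and 869 CPM, CEV1 (the CESA3 subunit) 939, 1010 and 969 CPM, and CESA6 673, 799 and 715 CPM. These are the 3 subunits of the primary wall cellulose synthase, and their libraries spread little. CEV1 stood highest per kb (254, libraries 245 to 264), above CESA1 (219, 206 to 244) and CESA6 (175, 161 to 192) in every library. POM1, a chitinase-like protein needed for cellulose assembly, reached 626 CPM per kb and GH9A1, the KORRIGAN endoglucanase, 421. CESA9 was the lowest at 1.31 CPM per kb.

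Wall loosening genes had a median CV of 18.0%, beside 8.93% for the cellulose genes. Of 68 expansin and xyloglucan endotransglucosylase/hydrolase (XTH) genes 39 were measured, 15 of them at 100 CPM or above, with a median of 48.8 CPM per kb. XTH4 led with 1421, 1690 and 2377 CPM (1182 per kb), highest in replicate 3. XTH15 had 1056, 496 and 451 CPM and was more than 2-fold higher in replicate 1 than in either other library. XTH17 had 518, 459 and 907 CPM and was highest in replicate 3. Among the expansins, EXP3 (346 CPM per kb, 290 to 409) and EXPA11 (331) were close. A range of 2-fold or more was found in 4 of the 32 members of at least 10 CPM, beside 5.57% of all such genes.

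Arabinogalactan proteins, glycoproteins of the wall and cell surface, summed to 10255, 11096 and 15515 CPM over 38 of 59 genes, with a median of 132 CPM per kb. AGP21, FLA9, AGP12 and AGP4 led them. FLA9, a fasciclin-like member, had 1451, 1644 and 2350 CPM, and 32 of the 38 genes were highest in replicate 3. Among 24 measured extensins and proline-rich proteins of 63, the extensin-like gene ELP led with 1982, 2035 and 2705 CPM. All 15 tubulin genes were measured and summed to 10074, 9912 and 12129 CPM, led by TUA6 (957 CPM per kb) and TUA4 (858). Tubulin and actin genes are near-identical within their families, so the division of reads among their members is uncertain. The plasma membrane proton pump gene HA1, which acidifies the wall, had 1256, 1207 and 1098 CPM. It held 95.0% of the CPM of the 6 measured pump genes. The median of these 6 was 2.15 CPM per kb, and 2 of them were above the median of all genes. Another 5 of the 11 listed pump genes were not analysed here, so the part of HA1 in all pump transcripts is not known.

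**Figure D2:**
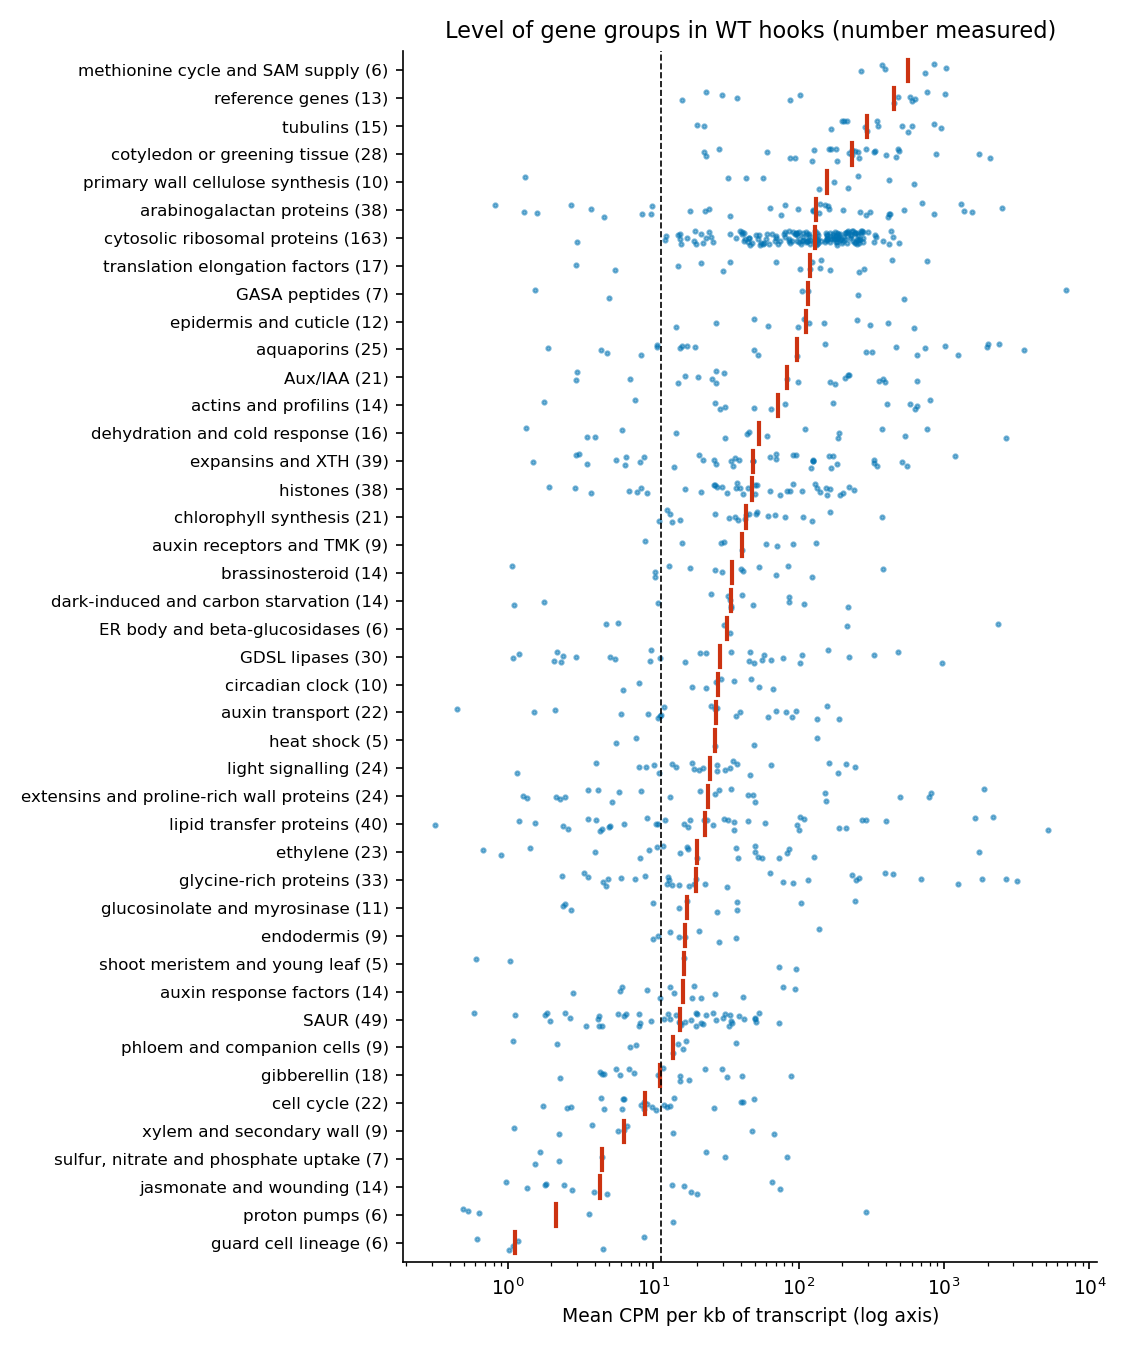
Mean CPM per kb on a logarithmic axis for each measured member (dots) of the gene groups with at least 5 members with a length; the red bar is the group's median and the dashed line the median of all genes, 11.3. Group medians run from 569 for the methionine cycle, a list drawn up after the values were seen, to 1.13 for the guard cell lineage.

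Genes of protein synthesis and of one-carbon supply were abundant and varied little between libraries. Of 197 cytosolic ribosomal protein genes 163 were measured, at 22717, 20353 and 20624 CPM in sum, or 2.39% of the table. Their median was 131 CPM per kb, and 162 of them were above the median of all genes. Of the 160 of at least 10 CPM 0 had a range of 2-fold or more, beside 5.57% of all genes of that level. Their median CV was 7.10%, beside 12.8% for all genes of at least 10 CPM. The highest per kb were AT3G60245 (494), AT5G02960 (444) and AT2G41840 (430), and the lowest was AT1G23410 (3.01). The methionine cycle, which regenerates methionine for methyl transfer and for ethylene synthesis, had 6 of 9 genes measured and a median of 569 CPM per kb. This was the highest of the groups with at least 5 members. The list was drawn up after the WT values had been seen, so its place among the groups is partly a description of that choice. HOG1, an S-adenosylhomocysteine hydrolase, stood at 2546, 2171 and 2091 CPM, and MTO3, an S-adenosylmethionine synthetase, at 1186, 1242 and 1356 CPM. The summed level of the 6 was 8116, 8038 and 8041 CPM.

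Many ribosomal protein promoters shared short sequence elements. A site II element was found in 112 of 163 (68.7%, beside 23.6% of all promoters) and a telo box in 29 (17.8%, beside 3.52%). Both together were found in 23 (14.1%), beside 1.43% of all promoters. AT1G52300, a zinc-binding ribosomal protein gene at chr1:19476235-19476484 on the minus strand, and SAC52, the ribosomal protein L10 gene at chr1:4887864-4888113 on the plus strand, are shown as examples of genes with a site II element. SAC52 was not among the 163 genes counted. Capitals mark the telo box and the site II elements on either strand.
AT1G52300: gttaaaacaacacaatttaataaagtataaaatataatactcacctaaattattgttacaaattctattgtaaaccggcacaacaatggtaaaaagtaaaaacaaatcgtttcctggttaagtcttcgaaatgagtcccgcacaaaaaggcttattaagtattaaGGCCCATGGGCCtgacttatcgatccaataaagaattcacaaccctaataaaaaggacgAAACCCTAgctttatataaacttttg
SAC52: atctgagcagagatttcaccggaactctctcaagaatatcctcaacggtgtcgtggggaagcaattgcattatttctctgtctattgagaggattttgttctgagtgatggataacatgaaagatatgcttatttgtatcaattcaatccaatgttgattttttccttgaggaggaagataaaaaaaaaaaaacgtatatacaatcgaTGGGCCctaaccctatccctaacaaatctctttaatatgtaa
In AT1G52300 a GGCCCA beginning 85 bases before the start stood directly before a TGGGCC at 79 bases, and the AAACCCTA began at 26 bases. In SAC52 a TGGGCC began at 42 bases, and there was no telo box. AT1G52300 had 312, 281 and 273 CPM. SAC52 had 446, 446 and 449 CPM and was 1 of the 10 steadiest genes with a symbol and a mean of at least 20 CPM.

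Auxin genes covered synthesis, transport, perception and response. TAA1, the aminotransferase of the main synthesis route, had 83.8, 75.4 and 97.8 CPM. YUC8, a flavin monooxygenase of its second step, had 54.6, 55.1 and 54.4 CPM and spread by less than counting error, and it was named after its values were seen. Of 25 listed transport genes 22 were measured, with a median of 27.1 CPM per kb.

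Among the carriers, the efflux transporter ABCB19 led with 761, 912 and 792 CPM (190 per kb, 176 to 211). PIN3, an efflux carrier of tropic bending and of the hook, had 410, 496 and 383 CPM (156 per kb, 139 to 180). PIN7 had 364, 367 and 381 CPM (133 per kb, 131 to 137). Per kb, PIN3 overlapped ABCB19 and was above PIN7 over the libraries' whole ranges. The uptake carriers AUX1 (90.5 per kb, 79.5 to 100) and LAX3 (82.1, 77.7 to 89.0) overlapped each other. PIN4 stood below them at 61.2 CPM per kb (58.8 to 64.5). AT2G17500, a PILS-type carrier of the endoplasmic reticulum, was at 96.7 CPM per kb.

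In perception, TMK1, a leucine-rich repeat receptor kinase of the cell surface, was the highest measured member of its list. It had 387, 468 and 469 CPM (441 ± 47.0, 131 per kb) and was lowest in replicate 1. AT3G23750, the gene known as BARK1 and TMK4, had 220, 297 and 239 CPM (70.7 per kb). Of the F-box receptors, GRH1 (AFB1) had 91.4 CPM per kb, TIR1 59.3, AFB5 41.1 and AFB4 8.76. IAA32, an Aux/IAA protein without the usual degron, had 55.3, 43.0 and 50.9 CPM (30.6 per kb). Its CV of 12.5% was close to the median of genes of at least 10 CPM, 12.8%. IAA34 was not analysed here.

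Among 21 measured Aux/IAA repressors of 27, the median was 83.6 CPM per kb and 15 were highest in replicate 3. IAA7 led with 892, 897 and 1243 CPM (655 per kb). AXR3 (IAA17) had 358, 429 and 769 CPM and the largest CV of the family, 42.3%, with replicate 3 well above the others. It was followed per kb by IAA2 (378) and IAA19 (357), and IAA30 was the lowest at 2.95. Of 22 auxin response factors 14 were measured, led by ARF2 with 430, 381 and 277 CPM (94.7 per kb) and ARF6 with 339, 353 and 257 CPM (77.9). NPH4 (ARF7), an activator needed for tropic bending, had 75.02, 98.8 and 70.4 CPM (18.4 per kb). Of 78 SAUR genes, small growth-promoting auxin targets, 49 were measured, none of them at 100 CPM or above. The highest SAUR was AT4G34760 with 50.7, 56.6 and 89.8 CPM (73.6 per kb), and 35 of the 48 with a mean of at least 1 CPM were highest in replicate 3. SAUR19, SAUR20 and SAUR24 were near 50 CPM per kb each (50.2, 50.7 and 53.4) and are close copies of each other, so their reads are uncertain.

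Ethylene genes covered synthesis and signalling, with 23 of 27 measured, 11 of them at 100 CPM or above, and a median of 19.9 CPM per kb. EFE (ACO4), an ACC oxidase of the last step of synthesis, had 284, 130 and 175 CPM and was highest in replicate 1. Per kb it stood at 128 CPM and ACO1 at 9.39. Of the ACC synthases, ACS6 had 165, 137 and 169 CPM and ACS2 0.273, 1.22 and 2.56 CPM, the first of these at the floor of 3 reads.

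Ethylene signalling genes were measured from the receptors to the transcription factors. EIN2, the membrane protein of the pathway, had 411, 340 and 320 CPM (73.6 per kb) and EIN3, its transcription factor, 226, 208 and 201 CPM (86.4 per kb). EIL1, the close relative of EIN3, had 125, 147 and 123 CPM. The F-box genes that degrade EIN3 had 49.9 (EBF1) and 52.7 CPM per kb (EBF2), and the receptors ERS1, ETR2 and ETR1 had 49.9, 17.1 and 15.3 CPM per kb. HLS1 had 21.8, 14.1 and 9.39 CPM (15.1 ± 6.28), ranked 9485 of 16383 and had the largest CV of the list's members of at least 10 CPM, 41.5%. It was highest in replicate 1 and more than 2-fold lower in replicate 3.

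Gibberellin genes stood near the median of all genes. Of 24 listed genes 18 were measured, with a median of 11.2 CPM per kb and sums of 634, 632 and 647 CPM. The DELLA repressors RGA1 (206, 192 and 223 CPM) and GAI (77.2, 55.8 and 84.8 CPM) stood at 89.1 and 29.8 CPM per kb. The synthesis genes KAO2, GA3OX1 and GA20OX1 had 32.2, 22.7 and 15.3 CPM per kb, and ATGA2OX1, which inactivates gibberellin, had 40.7 CPM per kb. For brassinosteroids, 14 of 17 genes were measured, with a median of 35.0 CPM per kb. DWF1, a sterol reductase, led with 1008, 886 and 986 CPM (380 per kb). BIN2, the kinase that restrains the pathway, had 248, 233 and 243 CPM (124 per kb), the receptor gene BRI1 283, 341 and 293 CPM (69.9), and the synthesis genes CPD and DWF4 84.3 and 26.6 CPM per kb. Per kb BRI1 (64.7 to 78.0) was below TMK1 (115 to 140) in every library.

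The photoreceptor genes PHYA and PHOT1 were among the abundant transcripts of these dark-grown hooks. PHYA, the phytochrome that accumulates in darkness, had 1100, 922 and 915 CPM (979 ± 105) and ranked 67th. PHOT1, the blue-light receptor of bending towards light, had 929, 775 and 814 CPM. Per kb, PHOT1 (243, 225 to 269) and PHYA (213, 199 to 239) overlapped. The cryptochrome genes CRY2 and CRY1 had 64.8 and 46.3 CPM per kb. PHOT2, PHYE and PHYD stood nearer to or below the median of all genes (11.3), at 13.5, 7.95 and 4.08 CPM per kb. PHYB and COP1 were not analysed here.

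Downstream of the photoreceptors, HY5, the bZIP factor of light responses, had 200, 238 and 216 CPM (188 per kb). The phytochrome-interacting factors that hold back greening were lower on that scale, with PIF3 at 38 CPM per kb, PIF4 at 35.4, PIL6 (PIF5) at 31.1 and PIL5 (PIF1) at 22.2. PIF7 was the lowest member of the light list with 2.18, 2.35 and 2.304 CPM. Of 29 listed light signalling genes 24 were measured, and 14 of them were lowest in replicate 3. The share over all genes was not taken. Of the 626 genes with a 2-fold range 355 were lowest there, but these are an unlike set. Such a range was found in 2 of the 23 light genes of at least 10 CPM, beside 5.57% of all such genes.

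Chlorophyll synthesis genes were expressed in the dark. Of 26 genes 21 were measured, with a median of 43.2 CPM per kb and sums of 2759, 3426 and 2002 CPM. PORB, a protochlorophyllide oxidoreductase that needs light to work, had 696, 650 and 484 CPM. Its relative PORA, which is known for its abundance in etiolated seedlings, had 183, 256 and 82.4 CPM (CV 50.2%). GUN5, the large subunit of magnesium chelatase, had 495, 874 and 393 CPM. All 21 genes of the list were lowest in replicate 3.

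Photosynthesis genes encoded in the nucleus, listed as markers of cotyledons or greening tissue, were also abundant. Of 29 genes 28 were measured, 23 of them at 100 CPM or above, with a median of 234 CPM per kb. Their sum was 15473, 13620 and 7830 CPM, and 27 of the 28 were lowest in replicate 3. RBCS1A, a small subunit gene of Rubisco, had 2742, 2445 and 1391 CPM, and PSBR, a photosystem II protein, 430, 418 and 293 CPM. A range of 2-fold or more was found in 11 of the 28, beside 5.57% of all genes of at least 10 CPM. The hooks were labelled as free of cotyledons, and whether a remnant of cotyledon or the hook itself gave these reads cannot be told apart in bulk RNA. The same holds for fewer cells of a type and less RNA per cell.

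The promoter of LHCA4, an antenna protein of photosystem I, is shown for its G-box, a motif found in 7 of 28 photosynthesis promoters (25%, beside 7.48% of all promoters). It lies at chr3:17495034-17495283 on the minus strand, and capitals mark the G-box, which begins 88 bases before the start.
LHCA4: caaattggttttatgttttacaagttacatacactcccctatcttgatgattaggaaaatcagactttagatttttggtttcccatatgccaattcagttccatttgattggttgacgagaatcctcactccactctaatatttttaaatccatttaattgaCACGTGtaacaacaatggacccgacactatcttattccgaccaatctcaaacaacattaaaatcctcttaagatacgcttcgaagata
LHCA4 had 677, 697 and 452 CPM, with replicate 3 the lowest. None of the 28 photosynthesis promoters had a telo box, and 4 had a site II element.

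Transcription factors as a group stood near the median of all genes. The annotation marked 478 measured genes as such, an incomplete set, and their median was 10.06 CPM per kb, beside 11.3 for all genes. IAA19 led them with 357 CPM per kb, followed by HB5, a homeodomain-leucine zipper factor (247, 218 to 268), HMGB2, a chromatin protein (210, 185 to 234), IAA16 (208, 191 to 240) and HY5 (188, 172 to 205). The ranges of neighbours in this order overlapped from IAA19 to HY5. SHY2, an Aux/IAA repressor, had 165 and ABF3, a bZIP factor of abscisic acid signalling, 150 CPM per kb. Of 162 genes annotated as receptor kinases the median was 7.83 CPM per kb. FER, the FERONIA receptor of wall sensing, was highest with 492, 496 and 561 CPM (162 per kb, 154 to 176), and TMK1 was next, below it in every library. FER was named after its values were seen.

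Marker genes of tissues were examined to check the tissue label. Epidermis and cuticle genes were all measured, 12 of 12, with a median of 113 CPM per kb. PDF1, an epidermal proline-rich protein, had 833, 906 and 871 CPM, and KCS10, a synthase of very long fatty acids, 778, 1004 and 1006 CPM. The epidermal regulators PDF2 and ATML1 had 62.1 and 49.6 CPM per kb. In the vasculature, the xylem protease gene XCP2 had 93.2, 93.7 and 91.6 CPM and the phloem sucrose carrier gene SUC2 79.8, 72.9 and 74.3 CPM. The median of 9 xylem and secondary wall genes was 6.29 CPM per kb and that of 9 phloem genes 13.6. Of the members of at least 10 CPM, 0 of 6 in the xylem list and 0 of 8 in the phloem list had a range of 2-fold or more. The share over all genes of that level was 5.57%, so 0 in lists this short does not set them apart. Their median CVs were 9.53% and 17.0%, beside 12.8% for all genes of at least 10 CPM.

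Markers of other tissues were measured in part. Guard cell lineage genes were low, with 6 of 8 measured, a sum of 37.5, 47.3 and 41.1 CPM and a median of 1.13 CPM per kb. KAT1, a potassium channel of guard cells, was the highest of them at 8.72 CPM per kb. Of 9 root markers only the phosphate carrier gene PHT1;1 was measured, at 1.73, 4.47 and 1.28 CPM, and the other 8 were not analysed here. Of 11 genes of shoot meristem and young leaf 5 were measured, led by AS1 (217, 173 and 161 CPM) and KNAT1 (128, 169 and 148 CPM), which are also active in stems. Of 12 seed genes the 3 measured were enzymes of oil breakdown and sugar synthesis, PCK1 (937, 666 and 448 CPM), ICL (72.5, 89.2 and 62.3 CPM) and MLS (19.8, 17.8 and 10.2 CPM). The storage protein and oleosin genes of that list were not analysed here. Of 24 cell cycle genes 22 were measured, with a median of 8.87 CPM per kb, and CYCB1;1, a mitotic cyclin, was the lowest at 3.55, 3.00 and 2.05 CPM.

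Spread between libraries was examined next. The median CV of genes of at least 10 CPM was 12.8%, with quartiles at 7.79 and 20.1%. Taken over 2 libraries only, it was 11.2% without replicate 1, 12.3% without replicate 2 and 8.04% without replicate 3. By level, the median CV was 21.5% at 1 to 10 CPM, 13.0% at 10 to 100, 12.1% at 100 to 1000 and 17.3% at 1000 CPM and above. Counting of reads alone gives 13.97, 5.53, 2.28 and 0.713% in these classes. A CV below 5% was found in 1282 genes (11.4%) and one of 50% or more in 154 (1.37%).

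Some genes varied by less than counting error alone would give. VDAC4, a porin of the mitochondrial outer membrane, had 64.4, 64.1 and 64.1 CPM (CV 0.270%), although counting alone gives a CV of 3.66% at its level. CDC48, a chaperone ATPase of protein degradation, had 579, 584 and 583 CPM, and CI51, a subunit of respiratory complex I, 279, 277 and 280 CPM. Such values lie below counting error, so their order is not resolved. PIN7 (CV 2.51%), XCP2 (1.21%) and ATMS1 (2.32%) also varied little. Of the 13 measured genes commonly used as references 0 had a 2-fold range, beside 5.57% of all genes of at least 10 CPM. ACT7 had 1035, 1105 and 1316 CPM and UBQ10 1874, 1941 and 2359 CPM, both highest in replicate 3.

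**Figure D3:**
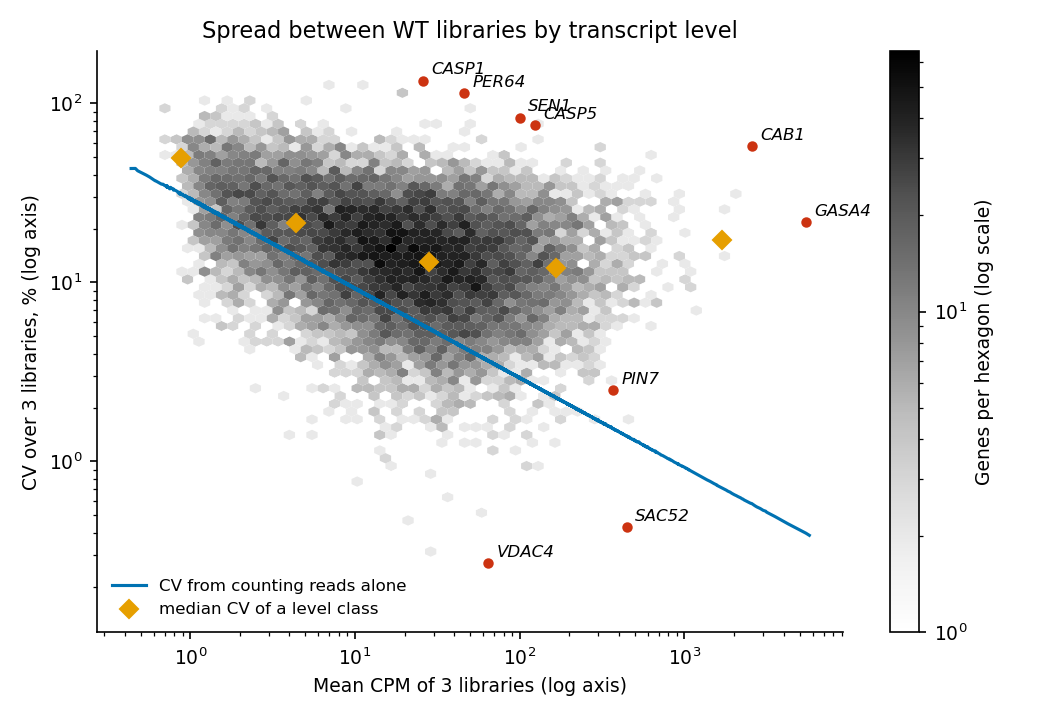
CV over the 3 WT libraries against mean CPM, both axes logarithmic, with genes counted in hexagons, the blue line for the CV from counting reads alone and orange diamonds for the median CV of each level class. CASP1, PER64, SEN1 and CASP5 lie far above the bulk, GASA4 and CAB1 at the high end, and VDAC4 and SAC52 below the counting line.

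Genes of the Casparian strip, the water-tight wall barrier of the endodermis, differed most between libraries. CASP1, a membrane scaffold of the strip, had 1.82, 10.07 and 65.4 CPM, from 20, 124 and 766 reads, and the largest CV of genes with a symbol and a mean of at least 20 CPM, 134%. CASP2 had 0.909, 6.74 and 37.1 CPM, CASP4 0.727, 5.20 and 27.2 CPM, and CASP5 40.2, 106 and 224 CPM. These 4 CASP genes were highest in replicate 3 and lowest in replicate 1. PER64, a peroxidase that makes the strip's lignin, had 5.18, 27.6 and 105 CPM, and MYB36, the transcription factor that switches on this programme, 7.91, 18.9 and 27.1 CPM. These 6 genes together had 56.7, 175 and 486 CPM, so that replicate 3 was 8.57 times replicate 1 and 2.78 times replicate 2.

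The other endodermal genes did not share this pattern. SCR, a factor of endodermal identity, had 56.7, 61.5 and 53.8 CPM, and GSO1 (SGN3), the receptor kinase that closes the strip, 38.6, 43.8 and 46.3 CPM. A range of 2-fold or more was found in 7 of the 9 measured endodermis genes, beside 5.57% of all genes of at least 10 CPM. PHT1;1, the only measured gene of 9 listed root markers, stood at 4.47 CPM or less and was highest in replicate 2. A single gene at this level cannot show whether root tissue was present in any library, and this was not tested.

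The CASP1 promoter is shown because this gene had the largest CV among genes with a symbol and a mean of at least 20 CPM. It lies at chr2:15160800-15161049 on the minus strand and held none of the 4 motifs, so it has no capitals.
CASP1: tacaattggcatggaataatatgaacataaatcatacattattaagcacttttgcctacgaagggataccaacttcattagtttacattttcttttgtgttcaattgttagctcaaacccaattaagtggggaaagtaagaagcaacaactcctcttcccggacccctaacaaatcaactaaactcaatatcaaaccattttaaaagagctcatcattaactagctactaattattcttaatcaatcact
Further genes with the same order of libraries were named after their values were seen. LAC3, a laccase, had 1.36, 12.2 and 40.3 CPM, and 3 dirigent-like genes, whose products guide lignin or lignan coupling, had 3.82, 14.9 and 82.5 (AT3G55230), 3.00, 10.8 and 56.9 (AT4G13580) and 1.64, 11.6 and 47.4 CPM (AT2G39430). All 15 dirigent-like genes together had 181, 260 and 563 CPM, and 28 genes annotated as peroxidases 1228, 1360 and 1914 CPM. The tonoplast aquaporin TIP2;2 had 45.6, 100.6 and 250 CPM and GASA1 71.7, 162 and 349 CPM.

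**Figure D4:**
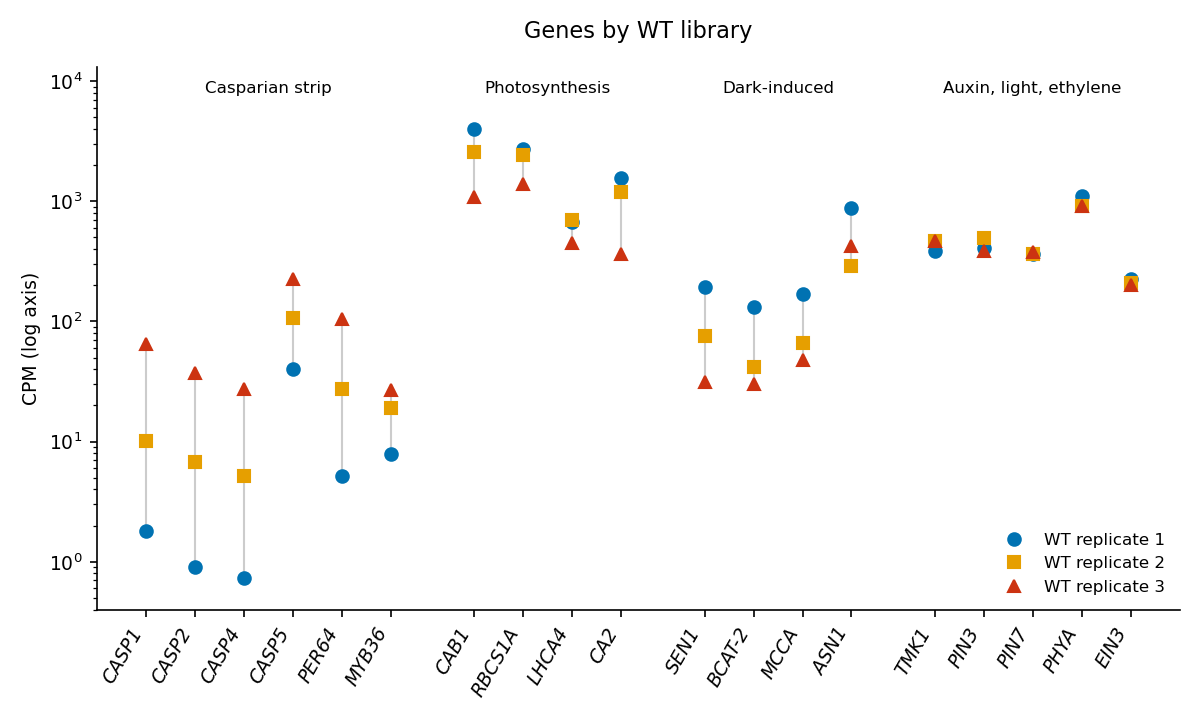
CPM on a logarithmic axis in each WT library for genes of the Casparian strip, of photosynthesis, of the dark-induced group and of auxin, light and ethylene pathways. Casparian strip genes are highest in replicate 3, photosynthesis genes lowest in replicate 3, SEN1, BCAT-2, MCCA and ASN1 highest in replicate 1, and the last group lies close together.

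Other groups set replicate 3 or replicate 1 apart. Mean deviations of log2(CPM + 1) from each gene's mean over the libraries reached 0.5 in size in 4 of 48 lists. The endodermis list stood at -1.41, 0.02 and 1.39 in replicates 1 to 3. The photosynthesis list stood at 0.26, 0.25 and -0.52, and the 100 plastid-encoded genes at 0.29, 0.27 and -0.56. In replicate 3 the photosynthesis list was at -0.48 with median-of-ratios scaling and the plastid-encoded list at -0.47 with a pseudocount of 4, both smaller than 0.5 in size. Of the plastid-encoded genes 97 were lowest in replicate 3. A range of 2-fold or more was found in 38 of the 75 of at least 10 CPM, beside 5.57% of all genes of that level. Of the 30 mitochondrion-encoded genes 6 were of at least 10 CPM, and 0 of these had such a range. CA2, a carbonic anhydrase named after its values were seen, had 1557, 1191 and 368 CPM.

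The dark-induced and carbon starvation list stood at 0.57, -0.18 and -0.39, with 13 of its 14 measured members highest in replicate 1. SEN1, a gene switched on by darkness and senescence, had 192, 76.1 and 31.1 CPM. BCAT-2 and MCCA, enzymes of branched-chain amino acid breakdown, had 132, 42.1 and 30.0 CPM and 168, 65.7 and 47.8 CPM. ASN1, an asparagine synthetase induced by low sugar, had 880, 287 and 421 CPM. All 4 genes were highest in replicate 1. The list was drawn up with such values already seen, so its deviation is a description of that choice.

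Transcript length moved with the library as well. Genes were sorted by length into 4 classes of like size. In the class of the longest, 2370 to 16593 bp, the mean deviation was 0.05, 0.10 and -0.15 in replicates 1 to 3, and in that of the shortest, 72 to 1278 bp, it was 0.01, -0.05 and 0.04. Over 16154 genes the rank correlation of deviation with length was 0.06, 0.33 and -0.29, given as a description of the libraries. The endodermis genes had a median length of 1088 bp and were high in replicate 3, while the photosynthesis genes had one of 1255 bp and were low there. The part of length in these differences was not tested. LHY, a morning gene of the circadian clock, had 33.7, 134 and 88.3 CPM, and TOC1, an evening gene, 243, 196 and 127 CPM. The hour of harvest is not given in the labels, and its part in these values was not tested.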

How the data were processed

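RNA was sequenced from dark-grown WT hooks in 3 libraries, each made with a directional library kit from 1 µg of total RNA (labels' protocols). The authors deposited 1 table of CPM values for 9 libraries, and 0 of its columns belonged to no sample. The tools were HISAT and HTSeq, per the submitters' processing notes. Their versions, the build, the gene models and the strand setting were not given in the sources used here. Values of genes that share sequence or overlap with another, antisense genes included, are therefore uncertain. The labels name no step that removes ribosomal RNA or selects polyadenylated RNA, on which organelle and ribosomal RNA values depend. Each gene in the table exceeded 1 CPM in 3 or more of the 9 libraries, so lower genes are not analysed here.

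Within 0.01 read, all WT values were whole numbers of reads times a constant of the library, which gave library totals and reads per gene. The values were treated as CPM, no count model was fitted, and reads serve only to describe depth and counting error. Means, SDs and CVs were taken over the 3 libraries, spread over genes with a mean of at least 10 CPM, and deviations on log2(CPM + 1) for genes of at least 1 CPM. Replicates share only a label number, and where they came from beyond separate pools is not given, so the spread may be partly technical. Lengths, symbols and promoters came from the RefSeq annotation and genome TAIR10.1, where 16240 loci were found and 7212 had a symbol. Levels per kb use the longest annotated transcript. Organelle loci had no length there.

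The gene lists, 49 with 1554 entries of which 1048 were measured, and the genes shown were chosen with earlier results of these data known, and 11 of the lists were drawn up after the WT values had been seen. Named genes were the 25 highest by CPM, the 15 highest per kb, from each list up to 5 highest, the lowest and the most variable member, the 10 largest and 10 smallest CVs among genes with a symbol and at least 20 CPM, the 12 highest transcription factors with a symbol and a set of hormone, light and chlorophyll genes. Other single genes given with their values were chosen after these were seen or stand for a list. Calculations used Python 3.11.15, numpy 2.4.6, pandas 2.3.3 and matplotlib 3.10.9, and the code was tested on simulated data. Alternatives were other scalings, minimum levels, pseudocounts and leaving out each replicate. Values of some genes are not reported here.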

Additional observations from a re-analysis of the deposited data

How the results depend on the processing

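Leaving out each library in turn gave a median CV of 8.04 to 12.3% and 127 to 438 genes with a range of 2-fold or more, the lower ends without replicate 3. The number of such genes was 1759 with no minimum level and 204 with a minimum mean of 50 CPM, where more or fewer genes were counted. With the whole library as denominator the 100 and 1000 highest genes held 15.8 and 42.2%, since part of each library lies outside the table. Ranked per kb, the 10, 100 and 1000 highest held 6.37, 20.7 and 51.5%. With a pseudocount of 4, or with median-of-ratios scaling, 3 lists deviated by 0.5 or more instead of 4. The list below that limit was the plastid-encoded one with the pseudocount and the photosynthesis one with the scaling. In all, 51 of the alternative values of the main results stayed within their limits and 10 moved, and for the levels and deviations of single lists 246 stayed and 9 moved. No paired analysis was possible because a single group was described and no test between groups was made. The 3 libraries limit every spread: a CV from 3 values is itself imprecise, and a gene at the median level rested on 223 to 246 reads. Values near the floor of 3 reads, such as ACS2 in replicate 1, carry counting error beyond the SD. What set replicate 3 apart from the other WT libraries was not tested.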

Other observations

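Further genes differed between the WT libraries. AT2G01010, annotated as 18S ribosomal RNA, had 26.2, 99.2 and 19.4 CPM, with replicate 2 far above the others. Among genes with a range of 4-fold or more, 58 in all (0.516% of genes of at least 10 CPM), 36 were highest in replicate 3, 12 in replicate 1 and 10 in replicate 2. The defensin-like gene AT3G05730 had 25.4, 30.8 and 1.37 CPM, low in replicate 3 alone, and AT4G22485, of the lipid transfer protein superfamily, had 49.7, 7.63 and 4.27 CPM, high in replicate 1 alone. TT4, the chalcone synthase that opens flavonoid synthesis, had 4.001, 21.3 and 8.28 CPM and was highest in replicate 2. XTH24 had 72.8, 44.3 and 12.5 CPM, and TGG1, a myrosinase of idioblast cells, had 254, 245 and 89.8 CPM, both lowest in replicate 3. RALF1, a peptide ligand of FER, had 9.28, 18.8 and 39.3 CPM, while FER itself varied by a CV of 7.46%. The nitrate transporter gene NRT1.5 had 1.73, 2.76 and 24.9 CPM, and BGLU22, a beta-glucosidase gene, 1.91, 10.6 and 17.2 CPM. AT4G22485, XTH24, TGG1, NRT1.5 and BGLU22 came under the rule for named genes, and the others were named after their values were seen.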
